A study of Rattus norvegicus with 24 samples.

Results

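The pregnane xenobiotic receptor and 9 genes tied to it were followed on 24 microarrays of midbrain from female rats. The 10 genes are the receptor itself (Nr1i2), its closest relative, the constitutive androstane receptor (Nr1i3), the 3 retinoid X receptors (Rxra, Rxrb and Rxrg) and 5 targets: Cyp3a9, Abcb1a, Abcc2, Abcc3 and Slco1a4. They were taken by name, as the probe sets whose single gene symbol in the platform annotation was one of the 10. This gave 13 probe sets of the 31042 that were not controls, and 10 genes of the 14217 with such a probe set. A probe set that the annotation gives to both Abcb1a and Abcb1b was left out by this rule.

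All rats were adult Long-Evans females. Gonadally intact rats were in proestrus, whereas ovariectomized (OVX) rats and rats that were ovariectomized and adrenalectomized (OVX/ADX) had been primed with estradiol benzoate. In each group, some rats underwent paced mating, in which the female controls access to the male, and the others were placed in the clean chamber alone. The 12 arrays of intact rats carry 2 kinds of title, and are called here the number-named and the Intact-named arrays. The OVX/ADX arrays also have numbers as titles, 4123 to 4126, 2530 and 2541. Of these, 2530 and 2541 lie within the range of the number-named intact arrays, 2526 to 2543. What this stands for is not known. There were 6 number-named, 6 Intact-named, 6 OVX and 6 OVX/ADX arrays, and 3 arrays of each set carry the paced mated label and 3 the chamber-exposed label. The study describes fewer intact rats than intact arrays, so whether the 2 intact sets share rats is not known, and p-values over them then measure the spread between arrays. The study also describes the loss of an OVX/ADX rat at surgery, so how the 6 OVX/ADX arrays map to rats is not known either.

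The lowest signals on an array were 3.58 to 3.65 (log2) for number-named, at most 2.39 for Intact-named and OVX, and 3.38 to 3.43 for OVX/ADX arrays, which points to 3 normalization runs, with the Intact-named and OVX arrays in 1 of them. Levels are therefore set side by side across runs only as a percentile, the rank of a probe set among the probe sets of its own array, and without a test. The sets also differed in regional markers. The median percentile of 10 midbrain dopamine neuron markers was 84.7 for number-named and 81.7 for OVX/ADX arrays, but 47.1 for Intact-named and 47.5 for OVX arrays. That of 8 cortex and hippocampus markers ran the other way, at 50.8, 54.3, 85.5 and 84.9 in the same order. All 24 arrays are labelled as midbrain. Run, tissue and rats cannot be told apart between these sets.

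The pregnane xenobiotic receptor, known as PXR, is a nuclear receptor that is activated by many steroids, bile acids and drugs. It binds DNA as a heterodimer with a retinoid X receptor, at repeats of a short half-site, and turns on genes that oxidize and export its ligands, mainly in liver and intestine. In brain capillaries of rats, activation of PXR is known to raise drug efflux transporters, and in the midbrain the receptor has been studied for its part in the formation of progesterone metabolites.

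RefSeq promoters of the rat assembly GRCr8 (300 bases, from 250 before to 50 after the start) were found for 9 of the 10 genes, all but Abcc3. The half-sites AGGTCA and AGTTCA were searched on both strands. At least 1 was present in 3 of the 9 windows, those of Nr1i2, Cyp3a9 and Abcc2, while 27.9% of 33469 rat promoters of this length hold 1 or more. The 3 windows shown are those of the receptor, of the target with the most half-sites and of the only member that passed the test in a comparison below, with half-sites in capitals, read 5′ to 3′ along the gene's strand.
Nr1i2 (chr11:75965467-75965766, plus strand): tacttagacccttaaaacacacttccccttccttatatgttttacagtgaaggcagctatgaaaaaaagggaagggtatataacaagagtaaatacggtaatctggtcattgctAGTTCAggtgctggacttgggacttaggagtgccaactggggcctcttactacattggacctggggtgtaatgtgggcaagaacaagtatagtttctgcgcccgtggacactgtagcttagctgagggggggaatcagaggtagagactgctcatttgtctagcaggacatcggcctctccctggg
Abcc2 (chr1:252613625-252613924, plus strand): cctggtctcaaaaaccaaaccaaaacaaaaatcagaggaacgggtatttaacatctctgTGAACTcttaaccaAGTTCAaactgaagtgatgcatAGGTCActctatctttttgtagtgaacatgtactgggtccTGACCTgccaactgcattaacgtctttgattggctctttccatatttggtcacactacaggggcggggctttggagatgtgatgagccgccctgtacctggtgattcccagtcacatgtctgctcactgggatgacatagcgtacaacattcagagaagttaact
Slco1a4 (chr4:176495797-176496096, minus strand): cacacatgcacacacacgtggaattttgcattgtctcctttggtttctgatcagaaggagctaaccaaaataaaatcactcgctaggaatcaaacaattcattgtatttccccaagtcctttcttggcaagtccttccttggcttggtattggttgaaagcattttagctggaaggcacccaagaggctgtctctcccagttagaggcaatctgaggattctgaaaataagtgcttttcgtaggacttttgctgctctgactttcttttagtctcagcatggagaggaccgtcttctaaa
The Nr1i2 window held 1 half-site, the Abcc2 window 4 and the Slco1a4 window none. The first pair in Abcc2 forms an everted repeat with a spacer of 8 bases, TGAACTNNNNNNNNAGTTCA, from -191 to -172 relative to the start. An everted repeat of this spacing, known as ER-8, is a described binding site for PXR and related receptors in the rat Abcc2 promoter. With either half-site spelling it was found in 5 of the 33469 promoters (0.0149%). No member window held a direct repeat spaced by 3 or 4 bases or an everted repeat spaced by 6. These repeats were searched after the Abcc2 window had been seen. A match is a description of the letters and not a measured binding site.

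Levels were described first. A median percentile above 20 over the 24 arrays, taken for the probe set of each gene with the highest mean signal, was reached by 8 of the 10 genes, all but Nr1i2 and Nr1i3. The same 8 genes stayed above the 20th percentile on each of the 24 arrays. Above the 50th percentile were 5 genes, Abcb1a, Cyp3a9, Rxrb, Rxrg and Slco1a4. Probe sets differ in how well they bind, so the level of 1 gene was not set against that of another, and no detection calls were used here. Where a gene has 2 probe sets, the first is the brighter by its mean over all arrays. Fewer cells of a type and less RNA per cell cannot be told apart in such tissue.

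**Figure D1:**
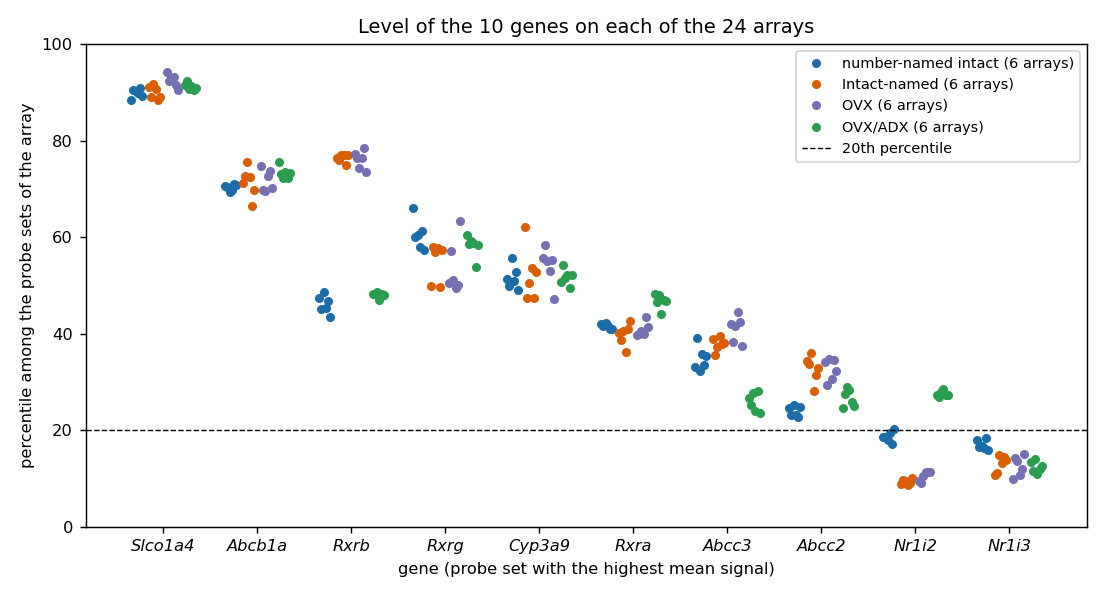
Percentile of each gene on each array (vertical axis, rank among the probe sets of the array, 0 to 100) for the 10 genes (horizontal axis), with a point per array coloured by array set and a dashed line at the 20th percentile. Nr1i3 sits below the line on all 24 arrays, Nr1i2 below it except for the OVX/ADX arrays and 1 number-named array, and the other 8 genes above it.

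The receptor had low signals. Among number-named arrays, Nr1i2 was at 5.28, 5.26 and 5.25 log2 units in the paced mated by label, and at 5.31, 5.35 and 5.39 in the chamber-exposed. On the Intact-named arrays it was at 3.90, 4.05 and 4.01 in the paced mated and 4.04, 3.90 and 4.11 in the chamber-exposed. The OVX arrays gave 4.03, 4.15 and 4.27 against 4.03, 4.28 and 4.26, and the OVX/ADX arrays 5.47, 5.49 and 5.44 against 5.41, 5.50 and 5.48. The 2 labels overlapped in 3 of the 4 sets, and did not on the number-named arrays. As percentiles, Nr1i2 ran from 17.2 to 20.2 for number-named, 8.64 to 10.0 for Intact-named, 9.15 to 11.4 for OVX and 26.9 to 28.5 for OVX/ADX arrays. It passed the filter on low signals, the 20th percentile on at least 3 arrays, only through the OVX/ADX arrays and 1 number-named array.

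**Figure D2:**
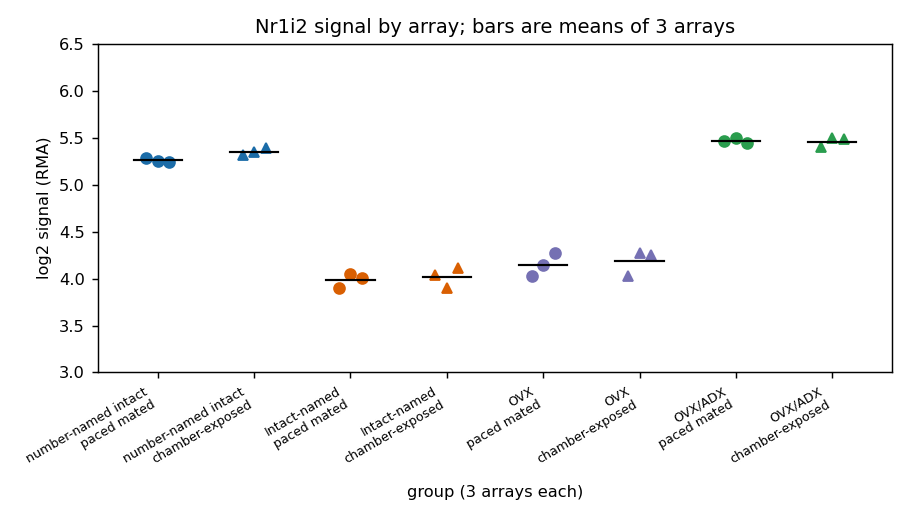
Nr1i2 signal in log2 units (vertical axis) on each array by set and mating label (horizontal axis, 3 arrays per group), with circles for paced mated, triangles for chamber-exposed and a bar at each mean. Points may be compared within a set, and between the Intact-named and OVX sets, but not across runs. Within each set both labels lie close together.

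Nr1i3 shares many targets with Nr1i2. Its percentile ran from 16.0 to 18.4 for number-named, 10.7 to 14.9 for Intact-named and 9.83 to 15.1 for OVX arrays, and within this last range for OVX/ADX arrays. It did not pass the filter and was tested only without it.

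The retinoid X receptors are the obligate partners of PXR. Rxra, the main partner in liver, was between the 36.2 and 48.2 percentiles on all arrays. Rxrb, which is expressed in most tissues, was between 43.5 and 48.6 for number-named and 46.9 and 48.6 for OVX/ADX arrays, but between 73.5 and 78.4 for those of the shared run. These ranges do not overlap, and they follow the run and the regional markers, whose part in this was not tested. Rxrg, the retinoid X receptor best known from striatum and muscle, ran from 49.4 to 66.1 by its first probe set and from 16.1 to 29.6 by its second.

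Among the targets, Slco1a4, which encodes the organic anion transporting polypeptide Oatp1a4 of brain capillaries and liver, was between 88.3 and 94.3 by its first probe set and between 56.1 and 81.1 by its second. The second was at 78.5 to 81.1 for number-named and 71.9 to 77.6 for OVX/ADX arrays. It was at 56.1 to 60.6 for Intact-named and 61.9 to 67.7 for OVX arrays. As for Rxrb, these ranges follow the run and the regional markers, whose part in this was not tested. Abcb1a, which encodes P-glycoprotein, the drug efflux pump of the blood-brain barrier, was between 66.4 and 75.7 by its first probe set and between 59.4 and 71.1 by its second. Cyp3a9, a steroid-hydroxylating cytochrome P450, ranged from 47.2 to 62.0. The conjugate exporters Abcc2 (Mrp2) and Abcc3 (Mrp3) ranged from 22.8 to 36.1 and from 23.5 to 44.4. Whether the Cyp3a9 and Slco1a4 probes tell these genes from their near relatives was not checked.

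The first question was whether paced mating changed these genes. Differences are paced mated minus chamber-exposed by the deposited labels, on the log2 scale, tested with limma and adjusted by the Benjamini-Hochberg method over 27032 probe sets. With these labels the anterior pituitary hormone genes of the number-named arrays run opposite to the direction that the study describes, so mating directions there hold for the labels as deposited. Of the 12 member probe sets that passed the filter, 0 were called at an adjusted p under 0.05 in any of the mating comparisons. Over all probe sets, 0 were called with both intact sets fitted together (0.0%), 12 for number-named (0.0444%), 4 for Intact-named (0.0148%), 0 for OVX (0.0%), 0 for OVX/ADX (0.0%) and 0 for all 24 arrays (0.0%). At an unadjusted p under 0.05 there were 2086, 2523, 2161, 654, 667 and 1134, and a model for each probe set without moderation called 0 in each of these 6 comparisons. With 3 against 3 arrays, an exact permutation test cannot go below p = 0.1 for a single gene.

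Nr1i2 differed little by label, at the low signals given above. Its difference was -0.06 with both intact sets together (SE 0.05, 95% interval -0.17 to 0.05, limma adjusted p = 0.788), -0.09 for number-named, -0.03 for Intact-named, -0.04 for OVX and 0.01 for OVX/ADX arrays. Over all 24 arrays it was -0.04 (95% interval -0.11 to 0.04, limma adjusted p = 0.969). Nr1i3, tested without the filter, differed by 0.07 with both intact sets together (limma adjusted p = 0.868).

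Rxrg had mating differences of opposite sign in the intact sets, neither of them called. Among number-named arrays its first probe set was at 8.41, 8.03 and 8.09 in the paced mated and at 8.01, 7.89 and 7.83 in the chamber-exposed. On the Intact-named arrays it was at 7.11, 7.57 and 7.04 against 7.68, 7.68 and 7.62. Paced mated arrays were higher without overlap in the number-named set and lower without overlap in the Intact-named set. The differences were 0.27 (SE 0.11, limma adjusted p = 0.497) and -0.42 (SE 0.15, limma adjusted p = 0.565), and the difference between them was 0.69 (SE 0.19, limma adjusted p = 0.216). In OVX rats it was at 7.16, 7.16 and 7.09 against 7.59, 7.06 and 8.04, a difference of -0.43 (limma adjusted p = 1.00), with overlapping labels, and in OVX/ADX rats the difference was -0.05. The second Rxrg probe set differed by -0.05 and 0.02 in the 2 intact sets, and correlated with the first at r = 0.17 over the 24 arrays after each set was centred. Of the other partners, Rxrb was at 7.14, 7.24 and 7.14 in number-named paced mated and at 7.03, 7.05 and 6.90 in chamber-exposed arrays, a difference of 0.18 without overlap (limma adjusted p = 0.442). Rxra reached 0.13 in OVX/ADX rats (limma adjusted p = 1.00), again without overlap.

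**Figure D3:**
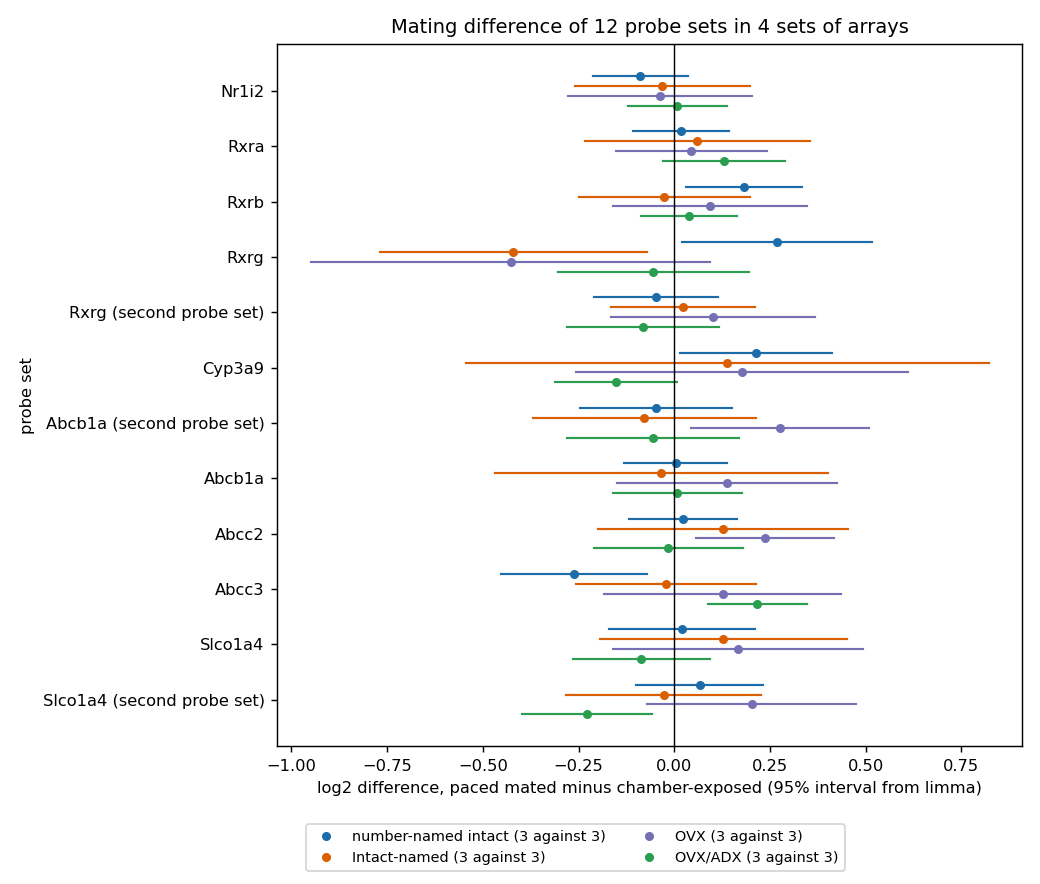
Mating difference in log2 units (horizontal axis, paced mated minus chamber-exposed by label) with its 95% interval from limma, for the 12 member probe sets that passed the filter (vertical axis) in the 4 array sets. No member was called. Rxrg is at 0.27 in the number-named and -0.42 in the Intact-named set, and Abcc3 at -0.26 in the number-named and 0.22 in the OVX/ADX set.

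The target differences had no common sign across the 4 sets, and none was called. Abcc3 was at 6.17, 6.13 and 6.25 on the number-named paced mated arrays and at 6.61, 6.38 and 6.35 on the chamber-exposed, a difference of -0.26 (SE 0.08, limma adjusted p = 0.371). In OVX/ADX rats it was at 5.43, 5.48 and 5.50 against 5.30, 5.20 and 5.26, a difference of 0.22 (SE 0.06, limma adjusted p = 1.00). The labels did not overlap in either set, and the direction was opposite. Cyp3a9 differed by 0.21 among number-named and by -0.15 among OVX/ADX arrays, without overlap in either, and neither difference was called. In OVX rats, Abcc2 was at 6.03, 6.05 and 6.05 in the paced mated and at 5.71, 5.82 and 5.89 in the chamber-exposed, a difference of 0.24 (SE 0.08, limma adjusted p = 1.00). There the second Abcb1a probe set differed by 0.28 without overlap (limma adjusted p = 1.00), and the first by 0.14. The second Slco1a4 probe set differed by 0.20 in OVX rats, with overlap, and by -0.23 in OVX/ADX rats, without it.

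The labels did not overlap for 5 of 12 member probe sets among number-named, 1 among Intact-named, 2 among OVX and 4 among OVX/ADX arrays. Over all probe sets tested the share was 15.4%, 13.9%, 6.29% and 6.78%. Markers of other tissues also differed by label. Among number-named arrays, 12 of 12 anterior pituitary markers were lower in the paced mated (median difference -2.01), 1 of them called, with a summed signal of 2481 to 30970 against 50087 to 53214, and 8 of 8 meninges markers were lower (median -0.76, 1939 to 5096 against 4201 to 6833). There 10 of 10 dopamine neuron markers were also lower (median -0.38, 5851 to 10698 against 8984 to 13543) and 8 of 8 cortex and hippocampus markers higher (median 0.16, 1590 to 3256 against 1685 to 1708). In OVX/ADX rats, 12 of 12 pituitary markers were higher (median 0.77, 964 to 45110 against 1026 to 6324) and 8 of 8 meninges markers lower (median -0.46). Pericyte and mural cell markers were lower there in 7 of 8 (median -0.07) and dopamine neuron markers in 7 of 10 (median -0.22). In OVX rats, 6 of 6 choroid plexus markers were lower in the paced mated (median -1.02, 1634 to 17095 against 21758 to 25006) and 9 of 10 endothelium markers higher (median 0.16, 5307 to 6447 against 4626 to 5845). Striatum markers were higher there in 7 of 7 (median 0.21) and pericyte and mural cell markers in 7 of 8 (median 0.11). Dopamine neuron markers were lower in 8 of 10 (median -0.22). Among Intact-named arrays, 7 of 7 striatum markers were higher in the paced mated (median 0.55, 4607 to 7627 against 1961 to 7576) and 7 of 8 meninges markers lower (median -0.43, 1468 to 5053 against 2193 to 4276), in the set where Rxrg differed by -0.42. Pericyte and mural cell markers were higher there in 7 of 8 (median 0.08) and endothelium markers in 7 of 10 (median 0.10). Choroid plexus markers were lower in 5 of 6 (median -0.07). Their part in the member differences was not tested. Whether the mating difference itself differed was tested between intact and OVX rats of the shared run (2 of all probe sets called, 0.0074%) and between the 2 intact sets (22 called, 0.0814%), and 0 member probe sets were called in either. At an unadjusted p under 0.05 there were 1339 and 2856.

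The second question was whether these genes differed between intact and OVX rats, which could be tested only for the Intact-named and OVX arrays, with the mating label as a term. Here 388 of 27032 probe sets were called (1.44%), 295 higher and 93 lower in intact rats. Of the 12 member probe sets 1 was called, the second of Slco1a4, which was lower in intact rats. On the Intact-named arrays it was at 7.67, 7.68 and 7.68 in the paced mated and 7.55, 7.89 and 7.67 in the chamber-exposed, and on the OVX arrays at 8.38, 8.28 and 8.04 and at 7.93, 8.18 and 7.98. All 6 intact arrays were below all 6 OVX arrays, and 2.64% of all probe sets did not overlap between these groups in either direction. The means were 7.69 ± 0.11 (SD, n = 6) and 8.13 ± 0.18 (SD, n = 6), a difference of -0.44 (SE 0.08, limma adjusted p = 0.0327), that is, 1.36-fold lower in intact rats. The exact permutation test within mating labels gave p = 0.005, two-sided, the smallest it allows.

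**Figure D4:**
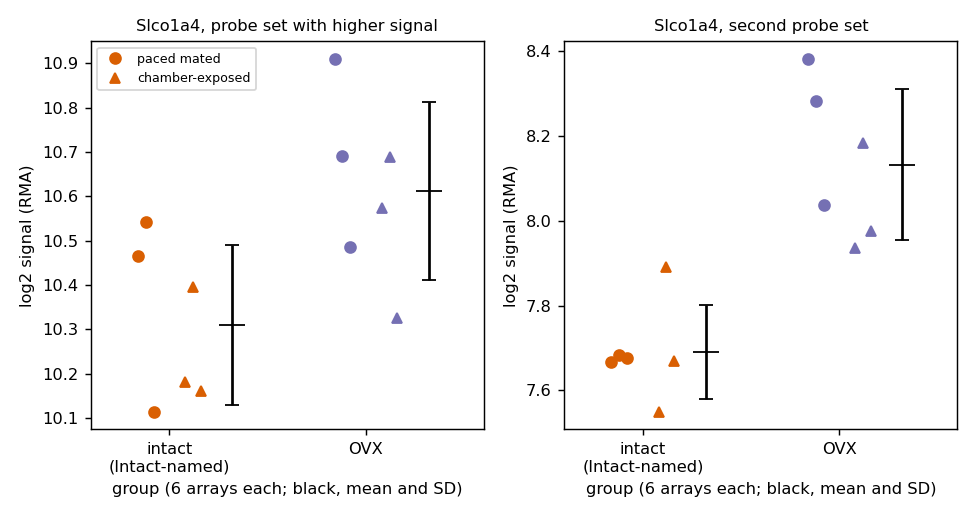
Slco1a4 signal in log2 units (vertical axes) on the 6 Intact-named and 6 OVX arrays for its 2 probe sets, with circles for paced mated, triangles for chamber-exposed and, in black, the mean and SD of 6 arrays. The groups overlap for the first probe set and do not for the second (7.69 against 8.13).

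The first Slco1a4 probe set, which is much brighter, was at 10.47, 10.54 and 10.11 and at 10.18, 10.40 and 10.16 in intact rats, and at 10.91, 10.69 and 10.48 and at 10.57, 10.69 and 10.32 in OVX rats. The groups overlapped, the difference was -0.30 (SE 0.10, limma adjusted p = 0.125) and it was not called, with p = 0.025 by the exact permutation test, two-sided. The call of the second probe set was lost without any 1 of 6 arrays, Intact-1 (limma adjusted p = 0.0575), Intact-2 (0.0837), Intact-3 (0.0785), OVX-1 (0.065), OVX-3 (0.0655) and OVX-4 (0.0951), and in the model without moderation (0.0625). Its difference stayed between -0.50 and -0.40 when each of the 12 arrays was left out in turn. By label it was -0.33 in the chamber-exposed and -0.56 in the paced mated arrays alone, neither called, in fits chosen after the data had been seen.

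Slco1a4 is expressed in capillary endothelium. Of 10 endothelium markers, 4 were higher and 6 lower in intact rats (median -0.01), with a summed signal of 4492 to 6667 against 4626 to 6447. Single markers ran from -0.33 (Kdr) to 0.20 (Slc2a1). With the median of the 10 as a covariate, a fit also chosen after the data had been seen, the Slco1a4 differences were -0.26 (limma adjusted p = 0.032) and -0.42 (limma adjusted p = 0.0257). A median of markers that disagree does not measure capillary content, whose part was not tested. Other marker lists leaned 1 way. In intact rats 7 of 8 pericyte and mural cell markers were lower (median -0.14, 1379 to 1877 against 1469 to 2225), as were 6 of 6 choroid plexus markers (median -0.64, 2245 to 24421 against 1634 to 25006) and 8 of 8 meninges markers (median -0.64, 1468 to 5053 against 2340 to 7107), and 7 of 7 striatum markers were higher (median 0.56, 1961 to 7627 against 2199 to 3891). Blood markers were higher in 3 of 3 (median 0.44) and cortex and hippocampus markers in 6 of 8 (median 0.15). Dopamine neuron markers were lower in 8 of 10 (median -0.25). None of these list genes was called, no marker is at 0 on this scale, and their part in the Slco1a4 difference was not tested.

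The other members were not called between intact and OVX rats. Abcc3 had means of 6.24 ± 0.09 and 6.48 ± 0.18 (SD, n = 6 each), a difference of -0.24 (limma adjusted p = 0.139, exact permutation p = 0.025). Nr1i2 differed by -0.17 (95% interval -0.31 to -0.02, limma adjusted p = 0.185, exact permutation p = 0.035), at percentiles near 10.0 in both groups. On every array compared here it lay below the percentile of the filter, which it passed only through arrays of other sets. At such low signals these values do not settle whether Nr1i2 differed. For Abcb1a the differences were 0.01 (95% interval -0.25 to 0.26) and -0.12 (-0.32 to 0.08), for Cyp3a9 -0.12 (-0.52 to 0.28), for Abcc2 -0.03 (-0.20 to 0.14), and for Rxra, Rxrb and Rxrg -0.10, 0.07 and 0.10.

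The wider pathway was read from 3 lists. Of 13 tested PXR cofactors, proteins that bind or modify the receptor, 1 was called between intact and OVX rats, where 1.44% of all probe sets were. This was Foxo1, a forkhead factor that also binds PXR, at 8.25 ± 0.21 in intact and 7.79 ± 0.13 in OVX rats (SD, n = 6 each), a difference of 0.46 (SE 0.09, limma adjusted p = 0.0392). This call was lost when any 1 of 10 of the 12 arrays was left out (limma adjusted p from 0.0251 to 0.113 over the 12, with differences of 0.40 to 0.52), in the model without moderation (0.0755) and in either label alone (0.296 and 0.386), in fits made after the data had been seen. The striatum markers, higher in intact rats in 7 of 7, and the other lists given above lean along the same comparison, and their part in the Foxo1 difference was not tested. The corepressor Nrip1 differed by 0.19 (limma adjusted p = 0.0893) and the coactivator Crebbp by 0.12 (limma adjusted p = 0.185). The list's median was 0.04, beside 0.00 over all probe sets. Of 13 other partners of the retinoid X receptors, 0 were called (median 0.02), and of 16 tested genes of drug metabolism and transport, 0 (median -0.01). In the mating comparisons 0 genes of the 3 lists were called. Of the 34 drug metabolism and transport genes listed, 27 had a probe set and 16 passed the filter.

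Genes whose pattern most resembled that of a member were named for the 5 members above the 50th percentile, by Pearson's r over 24 arrays after each of the 4 sets was centred on its mean. These values are descriptions, and the arrays share tissue pieces of varying makeup. For Cyp3a9 they were Ttyh2 (r = 0.97), Mcam (0.96), Cfap20dc (0.95), Lpar1 (0.95) and Myrf (0.94). Since Myrf is the master regulator of myelination, 7 myelin genes, chosen after this was seen, were set beside Cyp3a9. They were Mbp, Mog, Mag, Mobp, Cnp, Mal and Ermn, and their r ran from 0.80 to 0.93 with a median of 0.89. Within a set of 6 arrays, the 7 values of r ran from 0.86 to 0.98 for Intact-named, 0.97 to 0.99 for OVX, 0.61 to 0.95 for OVX/ADX and 0.36 to 0.56 for number-named arrays. The highest Cyp3a9 signal, 8.02 on Intact-1, was on the array with the highest myelin median.

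**Figure D5:**
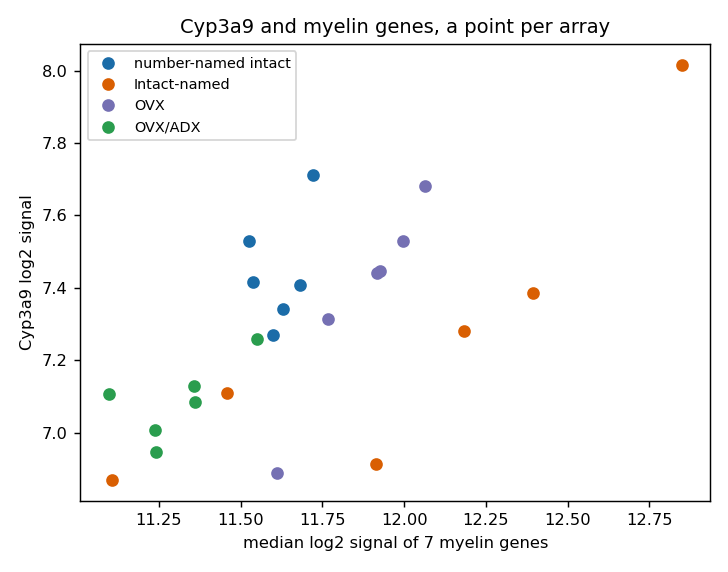
Cyp3a9 signal (vertical axis, log2) against the median signal of 7 myelin genes (horizontal axis, log2), with a point per array coloured by set. Signals differ in scale between runs, so the relation is read within a colour, where Cyp3a9 rises with the myelin genes in the Intact-named, OVX and OVX/ADX sets and only weakly in the number-named set.

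For Slco1a4 the most similar genes were Slc39a8 (r = 0.89), Icam2 (0.88), Vtn (0.88), Srgn (0.87) and Syde1 (0.86), of which Icam2 is an adhesion molecule of endothelium and Vtn is a known pericyte gene. The 10 endothelium markers had a median r of 0.66 with its first probe set, 9 of them positive, and 0.38 with its second. The 2 Slco1a4 probe sets correlated with each other at r = 0.69. For Abcb1a, also a capillary gene, the median r with the endothelium markers was 0.50 and 0.41. The same median was 0.41 for Cyp3a9, 0.40 for Rxrb and 0.32 for Abcc3, so positive values were not particular to Slco1a4 and Abcb1a. Whether these other members vary with capillary content was not tested. The nearest genes of Abcb1a were Pals2 (0.81), Spdya, Xylt2, Riox2 and Aldh4a1, but among the 6 number-named arrays r was -0.12 for Pals2, -0.35 for Riox2 and 0.11 for Aldh4a1, and for Spdya it was 0.04 among OVX/ADX arrays. For Rxrg they were Jun (0.86), Dgkg, Map4k3, Cpne7 and Cpne6, and for Rxrb Slco1c1 (0.77), the thyroxine transporter of brain capillaries, Atg9a, Kcnj14, Egfl7 and Telo2. Between the receptor and its targets, r with Nr1i2 was -0.60 for Cyp3a9, -0.52 and -0.40 for the 2 Slco1a4 probe sets, 0.30 for Abcc2, 0.09 for Abcc3, and -0.03 and 0.05 for the 2 Abcb1a probe sets, at the low signals of Nr1i2.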

How the data were processed

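Affymetrix rat expression arrays were analysed from the deposited log2 signals, which the authors made with RMA in Affymetrix Expression Console 1.4, per the submitters' processing notes. The published methods instead name GCRMA in GeneSpring. All 24 arrays were used, grouped by gland, title and mating label. From 31099 probe sets, 57 controls were left out. A probe set was kept if 3 or more arrays ranked it at the 20th percentile or higher, which left 27032. Of the 31042, 20826 had 1 symbol, 436 several and 9780 none. Each comparison was fitted with limma 3.58.1 (R 4.3.3) and Benjamini-Hochberg adjustment, single genes also with exact permutation tests, and the code was tested on simulated data. There were 7 main comparisons and 6 interactions, 4 of which were added after the data had been seen. Alternatives covered filter, scaling, moderation, weights, block and left-out arrays. Named were the 10 members, up to 3 genes of a pathway list in a comparison where any passed, and the 5 most similar genes of members above the 50th percentile. Members and lists were chosen with earlier results of these data known. The number of arrays limits the precision, and no 2 arrays were identical. Python 3.11.15 was used for the rest.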

Additional observations from a re-analysis of the deposited data

Results flagged for a closer look

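In 4 of 52 groups of 6 arrays, 1 array stood far from the other arrays of its set by Dixon's criterion, which chance meets in about 1 in 20 groups. Rxra was at 6.63 on OVX-5, above the other OVX arrays, and at 6.58 on OVX/ADX array 4126, below the others. The first Rxrg probe set was at 7.22 on OVX/ADX array 2541, and the second at 5.63 on number-named array 2526.

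In 3 cases the arrays labelled paced mated were all on opposite sides of the chamber-exposed in 2 sets. How many of all probe sets do the same was not counted, so whether 3 cases are many is not known. Within a single set, 6.29% to 15.4% of all probe sets tested had labels that did not overlap, in either direction. For Rxrg the difference was 0.27 on the number-named and -0.42 on the Intact-named arrays, 0.69 apart (limma adjusted p = 0.216). For Cyp3a9 it was 0.21 on the number-named and -0.15 on the OVX/ADX arrays, 0.36 apart (limma adjusted p = 0.472). For Abcc3 it was 0.22 on the OVX/ADX and -0.26 on the number-named arrays, 0.48 apart (limma adjusted p = 0.355). None of the 3 interactions was called, and each pair compares arrays of different tissue pieces or runs.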

How the results depend on the processing

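At the 50th percentile 5 genes, not 8, counted as above low percentiles. Over all settings and comparisons, member differences kept their sign and gave the same call in 1782 cases, whatever the change in size. The call was lost in 9 (all of the second Slco1a4 probe set between intact and OVX rats) and gained in 1 (the first, limma adjusted p = 0.032 with the endothelium covariate). In 155 the difference changed sign with no call on either side, and no called difference reversed. Counts of called probe sets depended more on the settings. For both intact sets, the number-named arrays alone gave 12 and the Intact-named alone 4. On the number-named arrays the count was 5 with the 50th percentile filter, 2 with quantile normalization, 0 without moderation and 112 with array weights, and on the Intact-named 0 without moderation and 1011 with array weights. Between intact and OVX rats it was 84 without moderation, 722 with array weights, 1 in the chamber-exposed alone, 0 in the paced mated alone and 740 with the endothelium covariate. For the interaction of mating with gland it was 1 without moderation, and for mating with array set 39 with array medians subtracted, 4 without moderation and 2314 with array weights. The cause was not tested. Leaving out each array in turn gave 0 to 1 calls for both intact sets, 2 to 57 for the number-named, 1 to 15 for the Intact-named, 0 to 0 for OVX, OVX/ADX and all 24 arrays, 0 to 443 between intact and OVX rats (0 without OVX-4), 1 to 9 for mating by gland and 9 to 345 for mating by array set.

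Whether the title numbers 1 to 6 pair the Intact-named and OVX arrays is not known. Deviations of same-numbered arrays correlated at 0.02 to 0.31, and 3 of 6 arrays correlated best with their own number, which does not settle it. With the replicate block 375 probe sets were called, and the adjusted p of the second Slco1a4 probe set was 0.0408 and that of Foxo1 0.0593. The covariate, label-wise and added interaction fits were chosen after the data had been seen.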
